A study of Mus musculus with 4 samples.

Results

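Mature Ccr7 dendritic cells are dendritic cells that have switched from taking up antigen to migrating and presenting it. Among 31143 cells with more than 500 detected genes in MC38 tumors, 192 cells met a rule for this kind (47 and 52 in the WT libraries with IgG and anti-PD1, and 46 and 47 in the A159V libraries). They were chosen from unique molecular identifier (UMI) counts in each cell. A cell needed at least 1 UMI of Ccr7, at least 1 UMI of Fscn1 and Ccl22 together, and at least 2 UMIs of the MHC class II genes H2-Ab1 and Cd74 together. It also had to have 0 UMIs of 6 genes that mark other cells, namely Cd3d, Cd3e and Cd3g of T cells, Cd79a of B cells, C1qa of macrophages and Hmga2 of the tumor line.

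Dendritic cells link innate sensing to T cell priming. Upon maturation they lower antigen uptake and gain the chemokine receptor CCR7, which guides them along CCL19 and CCL21 to lymph nodes, and the actin-bundling protein fascin (Fscn1). They then display costimulatory ligands such as CD80, CD86 and CD40. In tumors the same state is known to combine costimulatory ligands and IL-12 with inhibitory ligands such as PD-L1 (Cd274) and PD-L2 (Pdcd1lg2), and it is also called the migratory or immunoregulatory dendritic state.

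MC38 is a mouse colon carcinoma line, grown here under the skin of young adult C57BL/6 mice. In the WT groups the tumor cells had the unedited small GTPase RAC1, and in the A159V groups both copies of their Rac1 gene carried the A159V substitution, placed by CRISPR-Cas9 in 1 clone. The dendritic cells themselves came from the host, whose Rac1 was not edited, and all mice were killed on the same day after implantation. In each genotype 1 group received an antibody against PD1, the receptor of PD-L1 and PD-L2, and the other an IgG isotype control. Each group was 1 library, and the number of mice behind it is not given in the sources used here. No test between groups was therefore possible, every interval below covers counting error alone, and genotype, mouse and library cannot be told apart. CD45+ and CD45- cells were sorted on magnetic beads and pooled again in a fixed proportion, so shares of all cells depend on that mixing.

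The 4 libraries held 54402632 to 125227747 UMIs, and the mature Ccr7 cells contributed 226343 to 466074 of them per library. Their median depth per cell was 4386 UMIs with IgG and 7676 with anti-PD1 in WT, and 2763.5 and 4186 UMIs in A159V. Cells of WT anti-PD1 were thus the deepest and those of A159V IgG the shallowest. The median share of mitochondrial UMIs in them was 0.710% to 1.61%, against 2.24% to 2.80% over all cells of the libraries. Any pair of libraries shared 13 to 22 cell barcodes, and no barcode of a mature Ccr7 cell was among them. The WT anti-PD1 library stood apart from the others in genes that the rule did not use. The polyubiquitin gene Ubb, for example, was at 471 CPM (counts per 1000000 UMIs) in its macrophages and at 981 to 1522 CPM in those of the other libraries, and at 341 CPM in its mature Ccr7 cells, against 952 to 1717 CPM.

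Some chosen barcodes also held RNA of tumor or stromal cells. In 14 of the 192 cells, at least 5 UMIs were of the tumor line genes Rhox5 and Prl2c2 or at least 1% of UMIs were of the collagens Col1a1, Col1a2 and Col3a1 (7 and 2 in WT with IgG and anti-PD1, 3 and 2 in A159V). This definition was set after the data were seen. These mixed cells were deep, with library medians of 17356 to 34056 UMIs, and had 1 to 4 Ccr7 UMIs each. Tumor cells had library medians of 25767 to 43625 UMIs. Of 140 cells with Ccl22, 138 were unmixed, as were 125 of 128 with Cd80 and 133 of 135 with Il4i1. For Cd83 it was 165 of 173 and for Relb 156 of 168. Whether the mixed barcodes are mature dendritic cells was not tested. The mixed cells held 46.7%, 14.5%, 43.7% and 15.2% of the UMIs of all mature Ccr7 cells in the 4 libraries, and 8 of the 14 were predicted doublets, against 2 of the other 178. A summed level over all 192 cells is therefore diluted most in both IgG libraries. Levels below are given first over all 192 cells and then over the 178 unmixed cells, always with both WT libraries before both A159V libraries and IgG before anti-PD1.

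**Figure D1:**
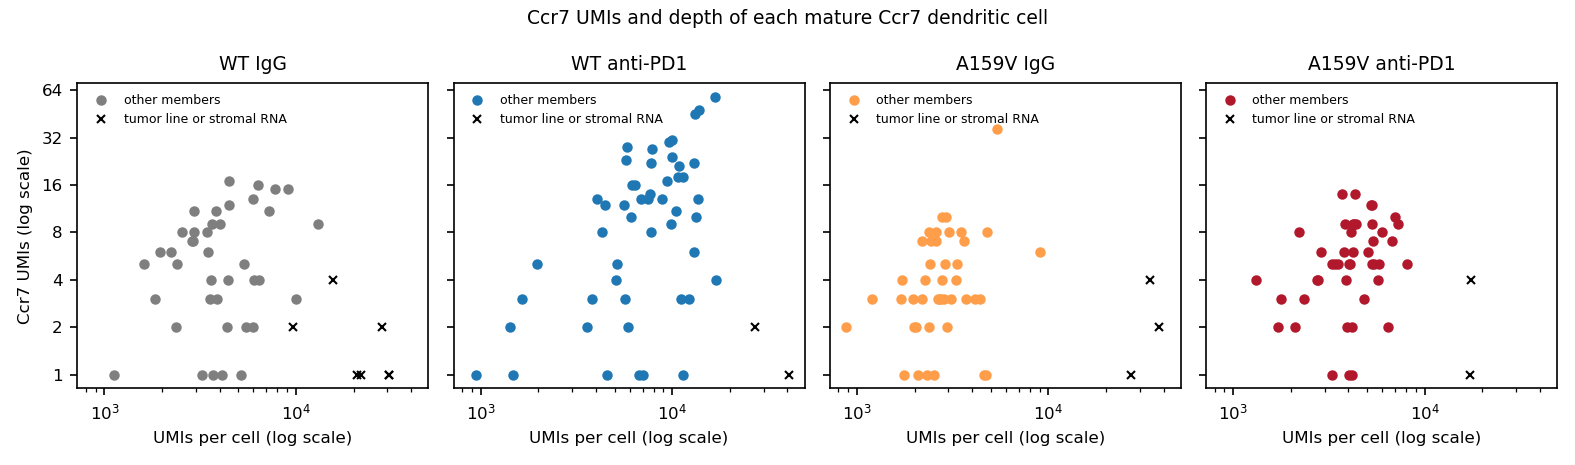
Ccr7 UMIs (y axis, log scale) against all UMIs (x axis, log scale) of each of the 192 mature Ccr7 dendritic cells, with 1 panel per library. Crosses are the 14 cells that also hold tumor line or stromal RNA, which lie at high depth with 1 to 4 Ccr7 UMIs, and filled points are the other 178.

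The values that chose the cells are given as a description. Ccr7 was at 807, 1453, 972 and 1184 CPM over all 192 cells and at 1446, 1691, 1671 and 1371 CPM over the unmixed cells, so that the 4 libraries lay closer together without the mixed cells. Fscn1 was at 925, 1204, 1043 and 1158 CPM (1540, 1393, 1750 and 1351 CPM unmixed). Ccl22, a chemokine that draws CCR4-bearing T cells, was at 644, 1169, 477 and 1145 CPM (1207, 1365, 840 and 1351 CPM unmixed). Both Fscn1 and Ccl22 were seen in 94 cells, Fscn1 alone in 52 and Ccl22 alone in 46 (92, 40 and 46 unmixed). Fscn1 was not particular to dendritic cells here, since 95.7% of tumor cells had a UMI of it, against 0.15% for Ccl22. Just inside the threshold lay 27 cells with exactly 1 Ccr7 UMI, and 165 had 2 or more. Just outside it lay 98 cells that met every other condition but had no UMI of Fscn1 or Ccl22, 80 that had too few MHC class II UMIs, and 99 that had a UMI of an exclusion gene, most often Hmga2 (53 cells). Ccr7 UMIs were also seen in 1.43% to 3.57% of tumor cells per library, which should lack the gene.

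The label was checked against markers that the rule did not use. Cd80 was detected in 66.7% of the 192 cells, Relb in 87.5%, Cd83 in 90.1% and Il4i1 in 70.3%. In the order given, the shares were 55.6%, 81.5%, 66.7% and 29.6% of cells with exactly 1 Ccr7 UMI and 68.5%, 88.5%, 93.9% and 77% of those with 2 or more. In the 98 cells without Fscn1 or Ccl22 the shares were 50%, 50%, 80.6% and 28.6%. Il12b was detected in 42 of the 192 cells. Lamp3, a marker of this state in human tissue, and the chemokine Ccl19 had no UMI in any of them, and neither had the type 1 dendritic marker Xcr1.

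Markers of other cell types were present to varying degrees in the unmixed cells. The 10 macrophage markers, of which C1qa was set to 0 by the rule, summed to 77.6 to 526 CPM per library there, against 9340 to 11925 CPM in macrophages, and the 8 T cell markers, of which the rule set 3 to 0, summed to 409 to 543 CPM, nearly all from Il7r, which mature dendritic cells also express. The 8 monocyte markers summed to 1835, 645, 2197 and 1894 CPM (1982 to 6933 CPM in macrophages), the 8 plasmacytoid markers to 734, 519, 973 and 750 CPM (293 to 1434 CPM in macrophages) and the 6 NK cell markers to 406, 118, 1169 and 316 CPM (27.5 to 196 CPM in macrophages). Of the 8 plasmacytoid markers 5, 5, 4 and 4 had no UMI, and of the 6 NK cell markers 4, 3, 1 and 5. The plasmacytoid sums therefore do not rest on the whole list. Summed monocyte, plasmacytoid and NK cell markers were lowest in WT anti-PD1, and their part in the results was not tested. The 6 stromal markers summed to 22.2, 346, 23.5 and 56.9 CPM. In WT anti-PD1 a Col1a1 UMI was found in 31 of 50 unmixed cells, while A159V IgG had 1 in 43. The granzymes, which are T and NK cell genes, came from single cells. Gzma had 84 UMIs in A159V IgG, all in 1 cell, and Gzmc had 192 there, 99% of them in 1 cell.

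Mature Ccr7 cells were a small and similar share of each library. In WT they made up 0.645% of cells with IgG (95% Clopper-Pearson interval, 0.474 to 0.856) and 0.760% with anti-PD1 (0.568 to 0.996). In A159V the shares were 0.566% (0.414 to 0.754) and 0.529% (0.389 to 0.703), and all 4 intervals overlap. The ratio of A159V IgG to WT IgG was 0.878 (95% Katz interval, 0.585 to 1.32), but it was 0.642 (0.465 to 0.886) without the exclusion genes and 1.24 (0.747 to 2.06) after thinning to 2000 UMIs. For anti-PD1 over IgG it was 1.18 (0.796 to 1.75) in WT, and A159V had 0.936 (0.624 to 1.40). With the rule as given each interval includes 1. Among cells with a UMI of Ptprc, the gene of CD45, the share in WT anti-PD1 was 1.04% against 0.608% in WT IgG, a ratio of 1.71 (1.07 to 2.72), or 1.82 (1.12 to 2.95) without mixed cells. The mature Ccr7 cells of WT anti-PD1 were also deeper, and the part of depth in this ratio was not tested. Among all cells, thinning each cell to 2000 UMIs left 27, 26, 33 and 37 mature Ccr7 cells and shares of 0.455%, 0.503%, 0.564% and 0.548%.

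Relative to other dendritic cells the order differed. Together with 189 type 1 dendritic cells (chosen by Xcr1 or Clec9a) and 283 Cd209a dendritic cells, mature Ccr7 cells made up 31.1%, 23.5%, 37.4% and 27.8% of dendritic cells. The share was lower in the anti-PD1 library of either genotype, with a WT ratio of 0.756 (0.540 to 1.06) and an A159V ratio of 0.744 (0.533 to 1.04), and both intervals include 1. Under 2 other settings they did not all do so. Thinned to 2000 UMIs the WT ratio was 0.565 (0.353 to 0.904), and without the exclusion genes it was 0.578 (0.443 to 0.753) in WT and 0.739 (0.565 to 0.967) in A159V. Between the IgG libraries the ratio, A159V over WT, was 1.2 (0.864 to 1.67).

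**Figure D2:**
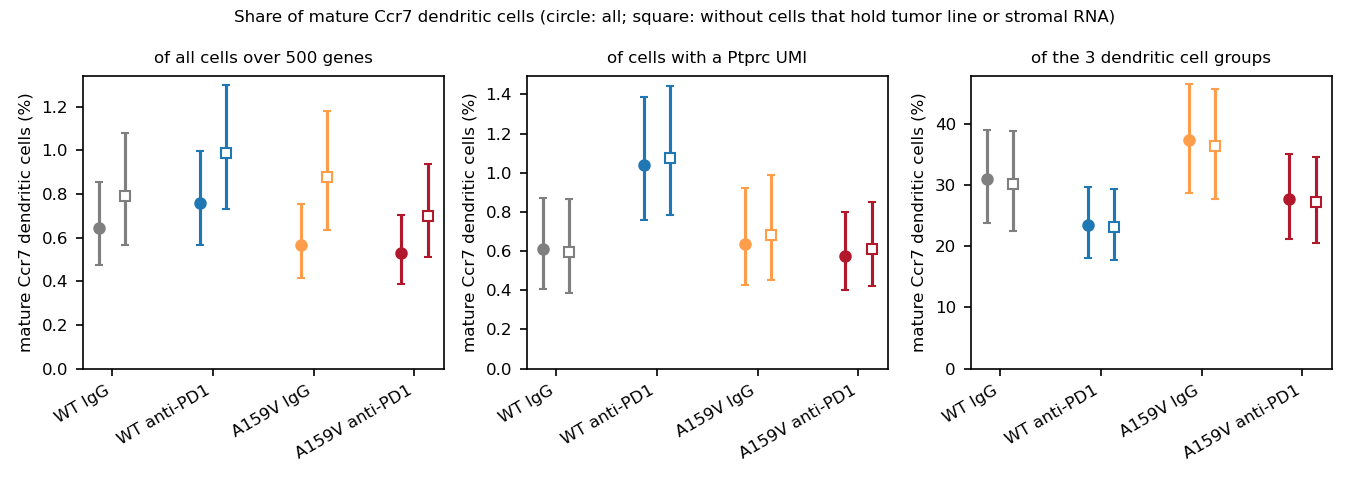
Share of mature Ccr7 dendritic cells in percent (y axis) in each library (x axis) among all cells, cells with a Ptprc UMI and the 3 dendritic groups, with 95% Clopper-Pearson intervals. Circles are all 192 cells and squares the 178 unmixed ones, and the intervals of the 4 libraries overlap among all cells (0.529% to 0.760%).

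To describe the cells by role, their summed levels were set against type 1 dendritic cells, Cd209a dendritic cells and C1q macrophages of the same library. A gene was counted as past 2-fold here when its log2 ratio of CPM + 10 was at least 1 in size in the same direction in 4 of 4 libraries, among genes of at least 100 CPM over the 4 libraries in either group of cells. Since the cells were chosen on expression, these counts describe them and carry no test. Of 2328 genes, 8.76% were higher and 6.19% lower than in type 1 cells. Of 2305 genes, 7.72% were higher and 7.94% lower than in Cd209a cells, and of 2397 genes, 9.43% were higher and 13.2% lower than in macrophages. The median log2 ratio over all genes was −0.11, −0.17 and −0.09, respectively.

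Costimulatory genes were higher in mature Ccr7 cells. Of 8 measured maturation genes, 4 were past 2-fold over type 1 cells (Cd80, Cd40, Tnfrsf9 and Relb) and 1 was lower (Cd48), with a median log2 ratio of 1.74, and without mixed cells 7 of 11 were higher (of 2381 genes, 12.5% were higher and 9.66% lower). Over Cd209a cells and over macrophages 3 of 9 were higher each, Cd80, Tnfrsf9 and Relb, and Cd48 was lower than in Cd209a cells. Cd80, the ligand of CD28 and CTLA4, was at 288, 277, 380 and 439 CPM (506, 316, 675 and 517 CPM unmixed), whereas pooled type 1, Cd209a and macrophage classes had 59.6, 120 and 68.1 CPM. Cd40, which receives help from CD4 T cells, was at 193, 279, 181 and 347 CPM (322, 326, 314 and 404 CPM unmixed), against 43.8, 84.0 and 104 CPM in the classes. Both genes were above each class in all 4 libraries. Cd86, the other ligand of CD28, did not set the cells apart, at 632, 680, 389 and 790 CPM against 946 CPM in Cd209a cells. Tnfsf4, which encodes OX40 ligand, was at 91.9, 23.6, 128 and 189 CPM and had no UMI in type 1 cells.

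Most inhibitory ligands and regulators were higher too. Of 8 measured genes, 6 were past 2-fold over type 1 cells (Cd274, Pdcd1lg2, Cd200, Pvr, Socs2 and Il4i1) and none was lower, with a median log2 ratio of 1.98. Over Cd209a cells 5 of 9 were higher and Lgals9, which encodes galectin-9, was lower, and over macrophages 4 of 10 were higher and 2 lower (Lgals9 and Vsir). Cd274 was at 825, 1064, 1122 and 1298 CPM (1412, 1237, 1844 and 1495 CPM unmixed), and at 284, 257 and 546 CPM in the 3 classes. It was detected in 177 of the 192 cells, and 57.1% of those also had a UMI of Pdcd1lg2, so both PD1 ligands were often seen in 1 cell. Il4i1, a secreted amino acid oxidase, was at 249, 970, 327 and 491 CPM against 7.54, 43.9 and 3.44 CPM in the classes. Socs2, a feedback inhibitor of cytokine signaling, was at 392, 637, 490 and 509 CPM against 1.37, 12.1 and 9.54 CPM.

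Among 6 measured cytokine genes Il12b, the shared p40 subunit of IL-12 and IL-23, was the 1 that was past 2-fold over type 1 cells. Its level was 427, 85.8, 654 and 149 CPM (801, 92.8, 1161 and 176 CPM unmixed), and 2.74, 0 and 1.56 CPM in the 3 classes. Il12a, the other subunit of IL-12, had no UMI. Il15ra, which presents IL-15 to NK and CD8 T cells, was higher too without mixed cells. Il1b was not set apart, with 730, 1006, 685 and 829 CPM against 968 CPM in macrophages.

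Of 11 measured chemokines, 3 were past 2-fold over type 1 cells (Ccl22, Ccl5 and Cxcl16) and 1 was lower (Ccl4), and Ccl22 had entered the rule. Ccl5, a chemokine that attracts T cells, was at 4437, 2328, 4294 and 7778 CPM (7423, 2692, 7062 and 9175 CPM unmixed) against 73.3, 93.8 and 318 CPM in the classes. Cxcl16, the ligand of CXCR6 on effector T cells, was at 377, 545, 455 and 570 CPM, above both dendritic classes (80.8 and 66.4 CPM) and near macrophages (339 CPM). Ccl17, which shares the receptor CCR4 with Ccl22, was seen in 21 cells, and all 21 also had Ccl22, against 69.6% of the others. Neutrophil and monocyte chemokines belonged to macrophages. Cxcl2, for example, was at 47.5, 532, 48.6 and 224 CPM in mature Ccr7 cells and at 3201 CPM in macrophages.

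Of 18 migration and cytoskeleton genes measured, 8 were past 2-fold over type 1 cells, namely Ccr7, Fscn1, Marcks, Marcksl1, Tbc1d4, Il7r, Cdc42ep3 and Swap70, and the same 8 were over Cd209a cells; Ccr7 and Fscn1 had entered the rule. Swap70, a RAC-binding exchange factor of migrating leukocytes, was at 270, 571, 411 and 412 CPM against 41.8 and 66.4 CPM in the dendritic classes. Tbc1d4, a RAB GTPase-activating protein, was at 1020, 2133, 1374 and 2097 CPM against 225 and 136 CPM. Lower than both dendritic classes were Rac2, the blood cell paralog of RAC1, and the RAC activators Tiam1 and Vav1. Rac2 was at 35.6, 21.5, 39.8 and 39.5 CPM in mature Ccr7 cells and at 119 and 195 CPM in type 1 and Cd209a cells.

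Genes of the NF-kB pathway, which drives dendritic maturation, were higher as well. Of 13 measured, 8 were past 2-fold over type 1 cells (Nfkb1, Rel, Relb, Map3k14, Traf1, Traf3, Birc2 and Birc3) and none was lower, with a median log2 ratio of 1.63. Over Cd209a cells 3 of 15 were higher (Relb, Traf3 and Birc2). Relb, the partner of p52 in the noncanonical branch, was at 483, 616, 415 and 531 CPM (801, 713, 722 and 605 CPM unmixed) against 39.7, 67.0 and 55.7 CPM in the 3 classes. Map3k14, the kinase that starts this branch, was at 389, 500, 287 and 592 CPM against 91.8, 161 and 40.6 CPM.

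Promoters of these genes were read from RefSeq (build GRCm38.p6) as 250 bases before to 50 bases after the start. The NF-kB consensus was searched on either strand as GGGRNNYYCC, where R is A or G, Y is C or T and N is any base. It was found in 9 of the 16 promoters of the NF-kB list (56.2%) and in 10.3% of all 20267 promoters. The genes most set apart from both dendritic classes had it in 4 of 11 (36.4%). Other lists had it in 40% (chemokines), 36.4% (interferon gamma), 28.6% (maturation), 25% (type I interferon) and 16.7% (inhibitory). Rel (chr11:23770920-23771219, minus strand) and Pdcd1lg2 (chr19:29410669-29410968, plus strand) hold matches. Il12b (chr11:44399813-44400112, plus strand) holds no exact match in this window, and neither does Ccl22. Sites that depart from this consensus were not searched for. Rel, Pdcd1lg2 and Il12b are shown 5′ to 3′ with matches in capitals.
Rel: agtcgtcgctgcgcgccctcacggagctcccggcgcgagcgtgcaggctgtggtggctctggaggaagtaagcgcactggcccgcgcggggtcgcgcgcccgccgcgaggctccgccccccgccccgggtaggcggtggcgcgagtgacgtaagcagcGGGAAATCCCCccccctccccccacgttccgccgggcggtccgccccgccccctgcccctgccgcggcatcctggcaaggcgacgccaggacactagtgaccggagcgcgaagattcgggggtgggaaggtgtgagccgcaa
Pdcd1lg2: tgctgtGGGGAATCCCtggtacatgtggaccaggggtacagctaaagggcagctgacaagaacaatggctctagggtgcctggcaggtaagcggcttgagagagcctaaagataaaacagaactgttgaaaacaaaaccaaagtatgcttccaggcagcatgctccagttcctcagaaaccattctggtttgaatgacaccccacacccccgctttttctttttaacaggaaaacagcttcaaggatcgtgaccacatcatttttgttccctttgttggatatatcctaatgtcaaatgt
Il12b: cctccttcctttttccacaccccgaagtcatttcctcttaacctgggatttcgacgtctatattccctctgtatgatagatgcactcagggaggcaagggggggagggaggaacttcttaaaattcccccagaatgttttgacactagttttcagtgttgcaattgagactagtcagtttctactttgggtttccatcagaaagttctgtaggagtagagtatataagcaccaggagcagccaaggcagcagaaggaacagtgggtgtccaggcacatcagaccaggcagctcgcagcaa

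Antigen processing and uptake ran the other way. Of 9 measured MHC class II genes, among them H2-Ab1 and Cd74 of the rule, none was higher and 2 were lower than in type 1 and Cd209a cells, H2-DMa and H2-DMb1, which encode the chaperone that loads peptide onto MHC class II. H2-DMb1 was at 80.1, 53.6, 53.0 and 65.8 CPM (83.4, 60.2, 62.8 and 62.1 CPM unmixed) against 375 and 447 CPM in the dendritic classes. H2-Aa, a chain of MHC class II itself, was at 2951, 4004, 2293 and 4220 CPM against 4830 and 5272 CPM and was not past 2-fold. Of 7 uptake and sensing receptors, Tlr3 and Cd24a were lower than in type 1 cells, and Fcgr1, Fcer1g and Mrc1 were lower than in Cd209a cells. The exception was Ly75, the endocytic receptor DEC-205, which was at 338, 455, 177 and 373 CPM against 48.6, 10.4 and 6.17 CPM in the 3 classes.

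**Figure D3:**
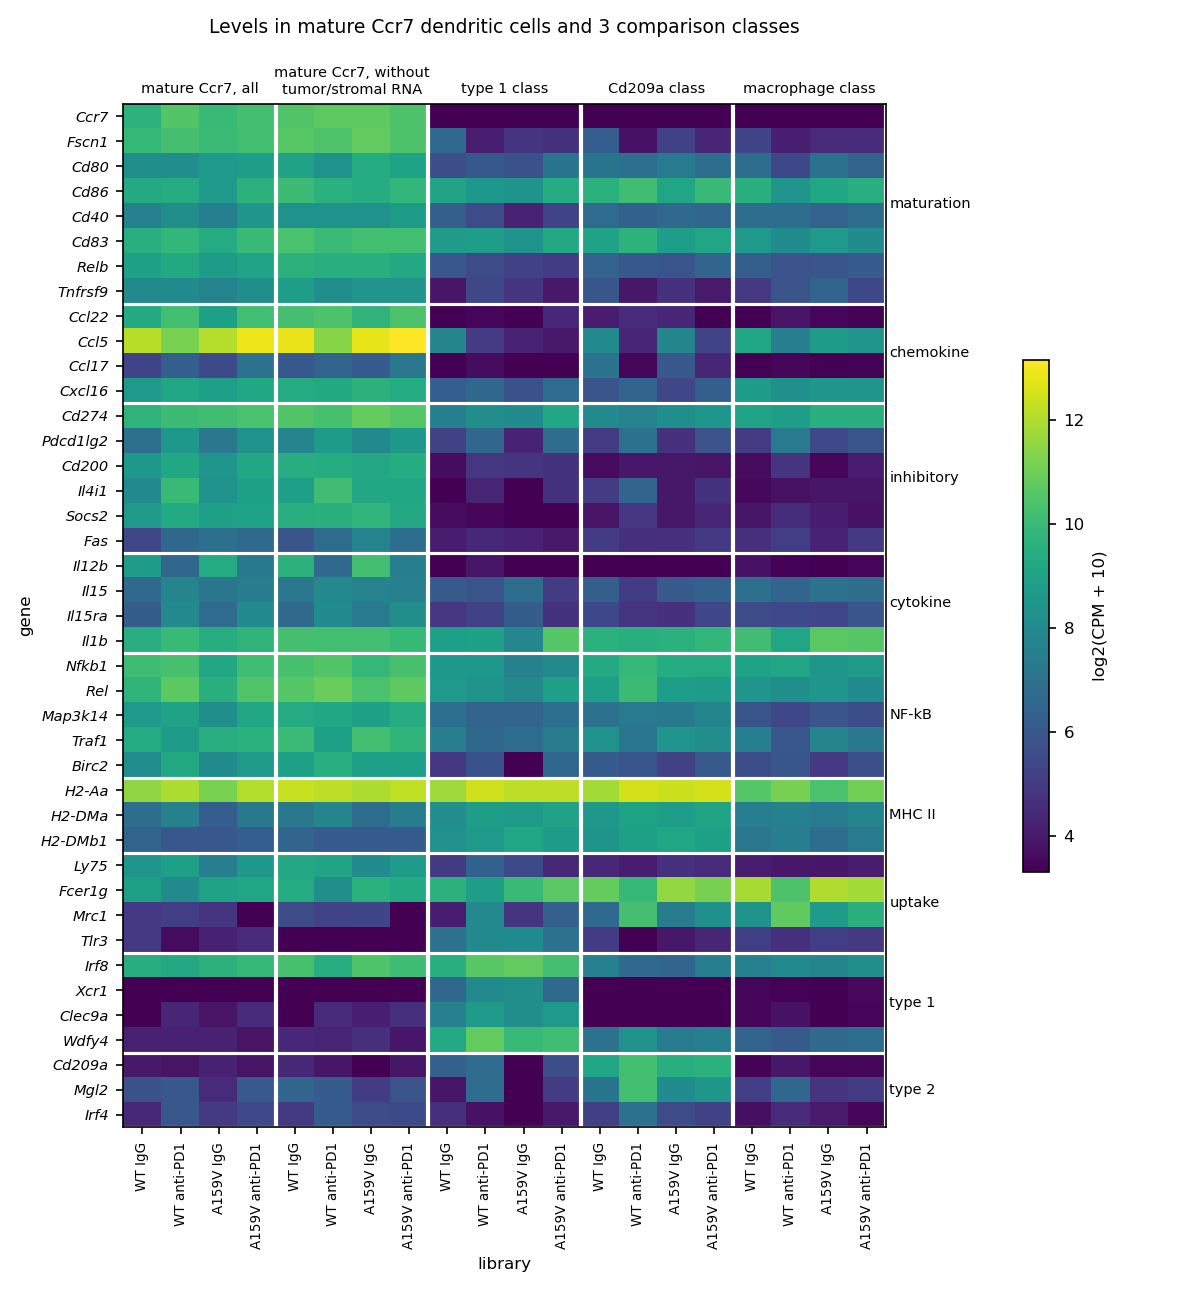
Summed level, as log2(CPM + 10) in color, of genes grouped by role (rows) in each library (columns) for all mature Ccr7 dendritic cells, the unmixed ones and the 3 comparison classes. Ccl22, Il12b, Cd200, Il4i1, Socs2 and Relb are bright in the mature Ccr7 blocks and dark in the classes, and H2-DMb1 and Wdfy4 are darker in the mature Ccr7 blocks than in both dendritic classes.

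The genes most set apart from other dendritic cells included members of the lists and genes outside them. Ranked by the smallest of 8 log2 ratios (4 libraries against 2 dendritic classes), Mreg led with 4.57, followed by Socs2 (4.47), the calcium channel subunit Cacnb3 (4.26), the protease inhibitors Serpinb6b (4.16) and Serpinb9 (3.88), Ccl5 (4.12) and Tmcc3 (3.70). Socs2 and Ccl5 belong to the lists above. Serpinb9, which inhibits granzyme B, was at 516, 534, 588 and 790 CPM (967, 617, 1036 and 926 CPM unmixed) against 24.0 and 13.7 CPM in the dendritic classes. Mreg, which encodes melanoregulin, was at 397, 575, 358 and 605 CPM against 4.8 and 7.68 CPM. These genes differed little among the 4 libraries beside their distance to the classes. At the other end lay Bcl11a, a transcription factor of dendritic development, at 2.97, 8.58, 0 and 17.5 CPM against 271 and 432 CPM, and Wdfy4, which serves cross-presentation in type 1 cells, at 8.90, 8.58, 8.84 and 4.39 CPM against 1314 and 216 CPM. Ckb, Mef2c, Itgb7 and Alox5ap were also among the 10 lowest.

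Genes of type 1 and type 2 dendritic cells were then counted in each mature cell. The count used 6 type 1 genes (Xcr1, Clec9a, Cadm1, Wdfy4, Naaa and Tlr3) and 8 type 2 genes (Cd209a, Mgl2, Clec10a, Sirpa, Itgam, Klf4, Clec4a4 and Cd209d), while Irf8, Batf3, Itgae and Cd8a of the type 1 list and Irf4 and Epcam of the type 2 list were left out. Type 2 genes without any type 1 gene were seen in 80 of the 192 cells, the reverse in 9, both in 25 and neither in 78. Irf8, the factor that specifies type 1 cells, was at 694, 596, 791 and 921 CPM, between type 1 cells (1294 CPM) and Cd209a cells (136 CPM). Of the 42 cells with Il12b (21.9% of the 192), 1 was among the 9 with type 1 genes alone and 13 were among the 80 with type 2 genes alone. The other cells with Il12b had both kinds or neither. Of the type 1 genes counted, Xcr1 had no UMI in these cells and Wdfy4 was below both dendritic classes. The counts therefore do not give the origin of a cell. Cells with Il12b carried Ccl22 in 81.0% of cases and those without it in 70.7%, and Ccl5 in 92.9% against 74.7%, at median depths of 4130.5 and 4384.5 UMIs. Without mixed cells it was 82.9% against 75.9% for Ccl22 and 92.7% against 78.8% for Ccl5. Since Ccl22 had entered the rule, its shares are partly fixed by the choice of cells.

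The first comparison between libraries set A159V IgG against WT IgG, to ask whether the cells differ between tumors of either genotype. A gene counted as past 2-fold between libraries when, besides a log2 ratio of at least 1 in size, the exact Poisson interval of its ratio left out 1. Of 2194 genes tested, 11% were past 2-fold. Of these, 130 were higher in A159V IgG (5.93%) and 111 lower (5.06%). Without mixed cells 79 of 2074 were higher (3.81%) and 89 lower (4.29%; 8.1% in all), and 27 and 33 of 1736 genes were so in both versions (1.56% and 1.9%). None of 14 NF-kB genes, 15 migration genes or 7 MHC class II genes was past 2-fold, of which Ccr7, Fscn1, H2-Ab1 and Cd74 had entered the rule, and Cd274, at 825 and 1122 CPM, had a log2 ratio of 0.44 (0.20 to 0.68). Il12b was at 427 CPM in WT IgG and 654 CPM in A159V IgG (log2 0.60, 0.28 to 0.93), with a UMI in 11 of 47 and 15 of 46 cells.

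Counts of 1 gene in the inhibitory and maturation lists were near the 11% of all genes past 2-fold. Of the inhibitory list, 1 of 8 genes was past 2-fold, and it was higher in A159V IgG. This was Fas, a death receptor, at 32.6 CPM in WT IgG and 115 CPM in A159V IgG, a ratio of 3.52 (1.68 to 7.90), or 4.08 (1.85 to 9.89) without mixed cells. Nans, a sialic acid synthase, was at 41.5 and 141 CPM (44.5 and 196 CPM unmixed), a ratio of 3.40 (1.77 to 6.91). Of 10 maturation genes Tnfrsf4, which encodes OX40, was past 2-fold higher, at 53.4 and 119 CPM, and without mixed cells Cd70, the ligand of CD27, was too, at 38.9 and 149 CPM. In the other direction Tnip3, an inhibitor of NF-kB signaling that NF-kB itself induces, was 7.10-fold lower (3.28 to 18.3), with 219 CPM in WT IgG and 30.9 CPM in A159V IgG, and it was 8.74-fold lower (3.83 to 24.6) without mixed cells. Sirpa, which binds CD47, was at 113 and 44.2 CPM (183 and 70.6 CPM unmixed), and Ccrl2, a chemerin-binding receptor, at 125 and 35.3 CPM.

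The interferon gamma list had 3 of 7 genes past 2-fold lower in A159V IgG, Gbp2, Iigp1 and Cxcl9, and without mixed cells Cxcl9 alone of 9. Of all genes 5.06% were lower, and 4.29% without mixed cells. Cxcl9, which attracts CXCR3-bearing T cells, had 163 CPM in WT IgG, where 14 of 47 cells carried it, and 8.84 CPM in A159V IgG, where 1 of 46 did. The ratio was 18.5-fold lower (4.87 to 156), and without mixed cells, where A159V IgG had no UMI, at least 7.09-fold lower against a floor of 3 counts. Cd209a cells and macrophages had less Cxcl9 in A159V IgG too (202 and 32.8 CPM, 349 and 36.1 CPM), but type 1 cells had 86.7 CPM in WT IgG and 283 CPM in A159V IgG. The type 1 class of A159V IgG was 25 cells, in which plasmacytoid markers summed to 3358 CPM against 1427 CPM in WT IgG, and T cell markers to 356 against 12.4 CPM. Their part in this level was not tested. Other large differences came from few cells. Gzmc, Gzma and Gzmb were higher in A159V IgG from 1 cell. The cell cycle genes Top2a, Rrm2, Pcna, Stmn1 and Ube2c were higher over all cells and were under the level minimum without mixed cells. The stress list had 6 of 14 genes lower in A159V IgG and, without mixed cells, 1 of 13 (Fos).

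The second comparison set WT anti-PD1 against WT IgG, to see the cells under checkpoint blockade. More genes differed here. Of 2274 tested, 301 were past 2-fold higher (13.2%) and 260 lower (11.4%), 24.7% in all, and without mixed cells 185 (8.53%) and 134 (6.18%) of 2168. In both versions 110 of 1956 were higher (5.62%) and 61 lower (3.12%). The median log2 ratio over all genes was 0.15, or 0.12 without mixed cells, so ratios are read against that shift.

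Il12b was lower in WT anti-PD1. It was at 427 and 85.8 CPM, 4.98-fold lower (3.48 to 7.25), and at 801 and 92.8 CPM without mixed cells, 8.62-fold lower (5.97 to 12.7). A UMI of it was seen in 11 of 47 and 8 of 52 cells, so that both the share of cells and the UMIs per cell were lower, and the most abundant cell held 26% of its UMIs in WT IgG and 35% in WT anti-PD1. In the summed levels, fewer cells with a gene and less RNA per cell cannot be told apart. Other immune regulators were higher. Il4i1 was at 249 and 970 CPM (461 and 1134 CPM unmixed), 3.89-fold higher (3.08 to 4.97), and Pdcd1lg2 at 113 and 367 CPM (200 and 424 CPM unmixed), 3.26-fold higher (2.28 to 4.76). These were the 2 of 7 inhibitory genes past 2-fold, both with and without mixed cells, against 13.2% and 8.53% of all genes higher. Cd274 was not, at 825 and 1064 CPM (1412 and 1237 CPM unmixed), with log2 ratios of 0.36 and −0.19.

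Il15ra was at 65.3 and 238 CPM, 3.65-fold higher (2.30 to 6.06), and was also past 2-fold without mixed cells. Ptgs2, the inducible cyclooxygenase of prostaglandin synthesis, was at 97.9 and 307 CPM (38.9 and 336 CPM unmixed), with 33% of its UMIs in 1 cell of WT anti-PD1. Slc7a11, the cystine transporter, was at 74.1 and 579 CPM (77.8 and 645 CPM unmixed), and Abcg1, a cholesterol exporter, at 32.6 and 204 CPM (33.4 and 233 CPM unmixed), seen in 6 of 40 and 39 of 50 unmixed cells. Cyp7b1, an oxysterol hydroxylase, had no UMI in WT IgG and 328 CPM in WT anti-PD1, at least 36.9-fold higher against 3 counts, or 19.7-fold without mixed cells. Macrophage-type chemokines were higher as well, with Cxcl2 at 47.5 and 532 CPM and Ccl3 at 26.7 and 178 CPM, and 40% and 37% of their UMIs in WT anti-PD1 came from 1 cell each. Ccl5 was lower, 4437 and 2328 CPM (7423 and 2692 CPM unmixed), and passed 2-fold without mixed cells only.

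Type I interferon-stimulated genes were lower in WT anti-PD1. Of 12 measured, 7 were past 2-fold lower and none was higher, with a median log2 ratio of −1.33. Without mixed cells it was 6 of 11 (Isg15, Ifit1, Ifit2, Ifit3, Rsad2 and Irf7), with a median of −1.26. Of all genes 11.4% were lower, and 6.18% without mixed cells. Isg15, a ubiquitin-like modifier, was at 1673 and 309 CPM (2396 and 299 CPM unmixed), 5.41-fold lower (4.50 to 6.55), with UMIs in 33 of 40 and 30 of 50 unmixed cells. Irf7, which amplifies the response, was at 246 and 75.1 CPM, and Ifit3 at 113 and 4.29 CPM. The other classes had the same list lower in the same library. In type 1 cells 10 of 13 genes were past 2-fold lower (median log2 −1.89, against 11.5% of all genes), in Cd209a cells 17 of 17 (−2.17, against 11.2%) and in macrophages 14 of 17 (−1.55, against 8.48%), and Ubb was lower with it in each class. In macrophages Isg15 was at 1570 and 191 CPM. Other values differed with the list in this library. It held 140 tumor cells, against 1096 in WT IgG, and 65.7% of them had an Isg15 UMI, against 97.0% in WT IgG. The tumor line markers summed to 564 and 0 CPM in the mature Ccr7 cells, 0 and 0 CPM in the unmixed ones, and 158 and 5.68 CPM in macrophages. Of the monocyte markers, 3 of 3 measured in unmixed cells were past 2-fold lower (Ly6c2, Plac8 and Ms4a4c, median log2 −1.72), as were 3 of 5 in type 1 cells and 3 of 6 in macrophages. Without mixed cells, where both libraries were at 0 for the tumor line markers, Isg15 was 8.03-fold lower (6.54 to 9.92). That 0 was partly fixed by the choice of cells. Of these markers the rule set Hmga2 to 0, and Rhox5 and Prl2c2 defined the mixed cells. At 1500 UMIs per cell, 27 of 39 and 13 of 47 unmixed cells had an Isg15 UMI. The part of the library, of tumor RNA and of cells with monocyte markers in this result was not tested.

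Genes that answer interferon gamma were near the background over all mature Ccr7 cells and above it in the unmixed ones. Of 9 measured, 1 was past 2-fold higher in WT anti-PD1 (Gbp5), against 13.2% of all genes, and without mixed cells 4 of 11 were (Gbp4, Gbp5, Iigp1 and Irgm1), against 8.53%, with none lower and a median log2 ratio of 0.87. Gbp2, an interferon-induced GTPase, was at 237 and 438 CPM (245 and 497 CPM unmixed). In Cd209a cells 5 of 11 genes of the same list were past 2-fold lower and none higher, in macrophages 1 of 11 was lower and none higher, and in type 1 cells 2 of 8 were higher. Of all genes, 15.3% were higher in type 1 cells, 12.8% in Cd209a cells and 8.34% in macrophages, and 11.5%, 11.2% and 8.48% were lower in the same order, so 1 of 11 in macrophages is near the background. The difference between classes was not tested. Isg15 (chr4:156200769-156201068, minus strand) and Gbp2 (chr3:142620413-142620712, plus strand) stand for the lists, and both promoters hold the interferon-stimulated response element, searched as GAAANNGAAA on either strand. It occurs in 9 of 16 promoters (56.2%) of the type I list, in 6 of 11 (54.5%) of the gamma list and in 3.92% of all promoters. Matches, which overlap in Isg15, are in capitals.
Isg15: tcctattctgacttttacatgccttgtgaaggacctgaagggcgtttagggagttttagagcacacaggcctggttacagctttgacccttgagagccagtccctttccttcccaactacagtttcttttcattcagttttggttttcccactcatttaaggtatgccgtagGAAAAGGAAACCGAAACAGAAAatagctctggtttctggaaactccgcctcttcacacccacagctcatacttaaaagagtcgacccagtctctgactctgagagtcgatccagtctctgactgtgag
Gbp2: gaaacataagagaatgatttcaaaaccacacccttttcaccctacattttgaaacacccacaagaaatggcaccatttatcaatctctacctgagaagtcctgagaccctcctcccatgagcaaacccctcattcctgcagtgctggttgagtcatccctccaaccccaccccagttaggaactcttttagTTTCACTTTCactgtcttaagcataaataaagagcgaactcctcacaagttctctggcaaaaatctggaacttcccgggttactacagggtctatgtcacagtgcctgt

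**Figure D4:**
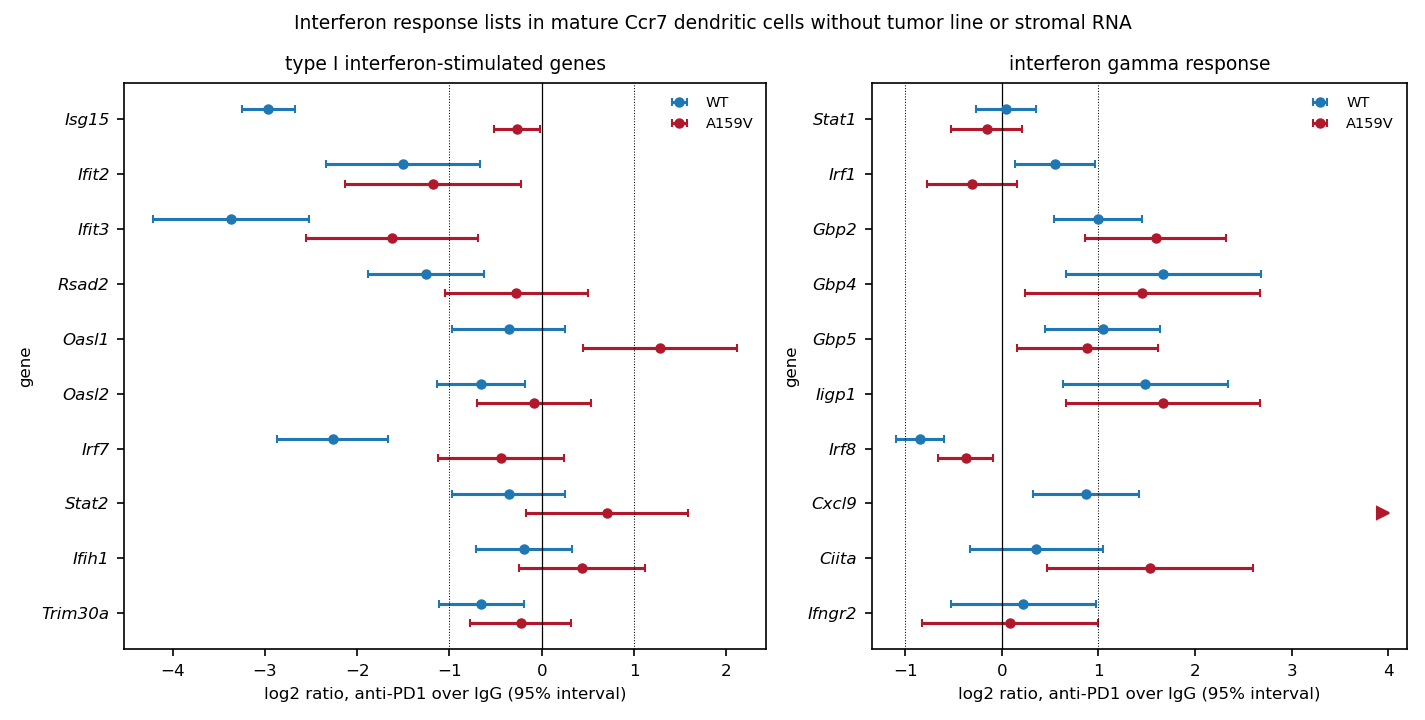
Log2 ratio of anti-PD1 over IgG (x axis, with 95% intervals) of type I interferon-stimulated genes (left) and interferon gamma response genes (right) in the unmixed mature Ccr7 dendritic cells of WT (blue) and A159V (red). Dotted lines mark 2-fold and the triangle at Cxcl9 is a lower bound, since A159V IgG had no UMI of it. Isg15 and Irf7 lie left of the 2-fold line in WT alone and Ifit3 in both genotypes. Gbp4 and Iigp1 lie right of it in both, and Gbp2 in A159V alone.

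Calls for maturation, migration and NF-kB genes changed with the mixed cells. Of 8 maturation genes Icam1, an adhesion ligand for T cells, was past 2-fold higher in WT anti-PD1, at 136 and 283 CPM, and without mixed cells 1 of 10 was past 2-fold, Tnfsf4, which was lower (172 and 27.6 CPM). Of 15 migration genes, 4 were higher (Marcks, Cytip, Tbc1d4 and Swap70), and without mixed cells Cd44 alone was. Of 14 NF-kB genes Traf3 and Birc2 were higher, whereas without mixed cells Traf1 was the 1 of 16 past 2-fold, at 1029 and 472 CPM. Of 9 MHC class II genes H2-DMb2 was higher, and without mixed cells Lgmn, a lysosomal protease, was lower. Of all genes 13.2% were higher and 11.4% lower, and 8.53% and 6.18% without mixed cells. A count of 1 or 2 genes in these lists is therefore near the background.

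Stromal RNA also differed in this comparison. Col1a1 was at 8.90 and 2997 CPM over all cells and at 11.1 and 130 CPM in unmixed cells, Rarres2 at 5.93 and 672 CPM (5.56 and 7.53 CPM unmixed) and Saa3 at 5.93 and 330 CPM (0 and 2.51 CPM unmixed). Its part in the other differences was not tested beyond leaving out the mixed cells.

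The third comparison set A159V anti-PD1 against A159V IgG. Of 2270 genes, 199 were past 2-fold higher (8.77%) and 333 lower (14.7%), 23.4% in all, and the counts were smaller without mixed cells. Then 87 of 2030 were higher (4.29%) and 75 lower (3.69%), 7.98% in all, and in both versions 61 of 1859 were higher (3.28%) and 35 lower (1.88%).

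Il12b was lower here too. It was at 654 and 149 CPM, 4.38-fold lower (3.0 to 6.57), and at 1161 and 176 CPM without mixed cells, 6.60-fold lower (4.52 to 9.89). The cells with a UMI were 15 of 46 in A159V IgG and 8 of 47 in A159V anti-PD1. Thinned to 1500 UMIs per cell, 15 of 44 and 6 of 46 cells had one, and 9 of 46 and 4 of 49 in WT IgG and WT anti-PD1, so the IgG library had more cells with Il12b in either genotype at matched depth too. The 2 anti-PD1 comparisons share no library.

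**Figure D5:**
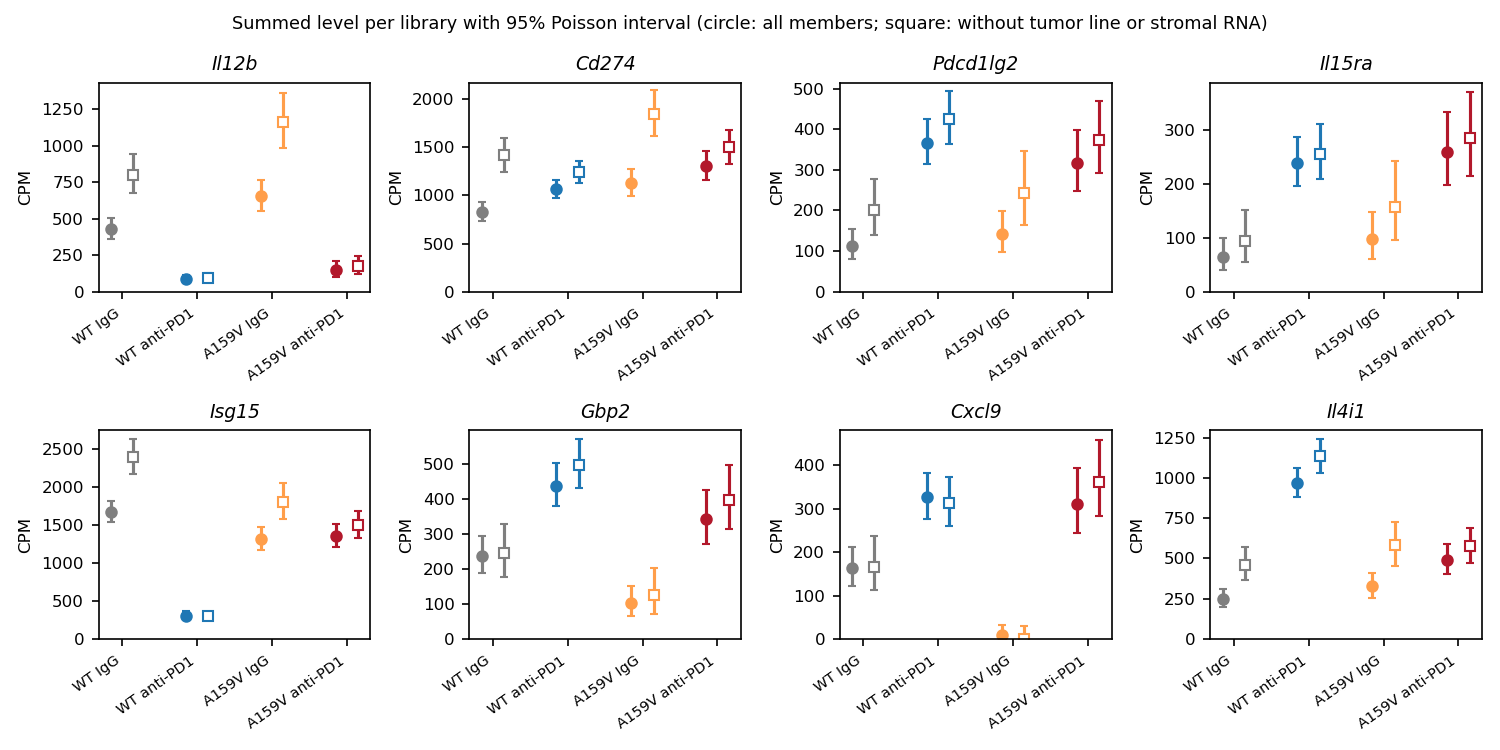
Summed level in CPM (y axis) of 8 genes in the mature Ccr7 dendritic cells of each library (x axis), with 95% Poisson intervals; circles are all cells and squares the unmixed ones. Il12b is lower in both anti-PD1 libraries (85.8 and 149 CPM) than in both IgG libraries (427 and 654 CPM), Isg15 is low in WT anti-PD1 alone, and Cxcl9 is near 0 in A159V IgG alone.

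Several interferon gamma response genes were higher in A159V anti-PD1. Of 9 measured, 5 were past 2-fold higher (Gbp2, Gbp5, Iigp1, Cxcl9 and Ciita) and none lower, with a median log2 ratio of 1.39, and without mixed cells 5 of 11 were (Gbp2, Gbp4, Iigp1, Cxcl9 and Ciita), with a median of 0.88. Of all genes 8.77% were higher, and 4.29% without mixed cells. Gbp2 was at 102 and 342 CPM (126 and 398 CPM unmixed). Ciita, the master regulator of MHC class II transcription, was at 26.5 and 149 CPM (47.1 and 155 CPM unmixed). Cxcl9 was at 8.84 and 311 CPM, a ratio of 35.2 (9.41 to 297) over 2 counts, and at least 15.4-fold higher without mixed cells. It was seen in 1 of 46 and 11 of 47 cells, against 14 of 47 and 18 of 52 in WT IgG and WT anti-PD1. The other classes had 4 of 13 genes of the list higher in type 1 cells (median 0.92, against 10.8% of all genes), 2 of 9 in Cd209a cells (0.63, against 3.05%) and 3 of 12 in macrophages (0.43, against 0.943%), and none lower in any of them.

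Type I interferon-stimulated genes did not go the way they did in WT. Of 10 measured, Ifit2 and Ifit3 were past 2-fold lower and none was higher, with a median log2 ratio of 0.02, and without mixed cells Oasl1 was higher and the same 2 of 11 lower, with a median of −0.27. Of all genes 14.7% were lower, and 3.69% without mixed cells. Isg15 was at 1317 and 1360 CPM (1813 and 1501 CPM unmixed), and Ifit3 at 180 and 51.7 CPM in the unmixed cells. In type 1 cells, Cd209a cells and macrophages 1 of 14, 3 of 16 and 3 of 18 genes of the list were lower, against 6.34%, 2.54% and 0.754% of all genes. The difference between the genotypes was not tested.

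Inhibitory genes past 2-fold were Pdcd1lg2, Pvr and Socs1, of 9 measured, all higher. Of all genes 8.77% were higher, so the 1 of 10 maturation genes given below is near the background. Pdcd1lg2 was at 141 and 316 CPM, a ratio of 2.23 (1.45 to 3.5), and 243 and 373 CPM without mixed cells, a ratio of 1.53 (0.992 to 2.42) that includes 1. Socs1, a brake on interferon signaling, was at 22.1 and 105 CPM (15.7 and 114 CPM unmixed) and was past 2-fold in both versions. Il15ra was at 97.2 and 259 CPM, 2.66-fold (1.61 to 4.56), but 1.81-fold (1.07 to 3.19) without mixed cells. Il4i1, higher in WT anti-PD1, was at 327 and 491 CPM here, and 581 and 574 CPM without mixed cells. Whether the genotypes differ in it was not tested. None of 15 migration genes was past 2-fold. Of 10 maturation genes Cd86 was higher, at 389 and 790 CPM, and without mixed cells it was not (675 and 911 CPM), while Cd70 was lower at 149 and 41.4 CPM, which rests on the same A159V IgG level as before.

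Tnip3, low in A159V IgG, was at 30.9 and 197 CPM, 6.38-fold higher (2.86 to 16.8) in A159V anti-PD1, and Ccrl2 was at 35.3 and 158 CPM and Sirpa at 44.2 and 180 CPM. Nans, which had been high in A159V IgG, was at 141 and 48.3 CPM, 2.93-fold lower (1.44 to 6.44). These genes thus rest on the level in A159V IgG, which both comparisons share. Slc44a5, a choline transporter-like gene and one of the genes most set apart from other dendritic cells, was at 155 and 500 CPM (275 and 585 CPM unmixed). Bcl2l1, an inhibitor of apoptosis, was at 102 and 43.9 CPM, and 39% of its UMIs in A159V IgG were in 1 cell. Collagens again followed the mixed cells. Col3a1 was at 13.3 and 2009 CPM over all cells, 98% of it in 1 cell, and at 7.85 and 41.4 CPM without mixed cells.

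Among 1626 genes tested in both anti-PD1 comparisons, with and without mixed cells, 60 were higher in WT and 49 in A159V, and 8 were shared (13.3% and 16.3% of each list), namely Adam23, Ptgs2, Camk1d, Slc44a1, Fgl2, Cxcl2, Bmt2 and Nrg1. Ptgs2 was at 83.9 and 325 CPM in A159V IgG and A159V anti-PD1, 3.87-fold higher (2.31 to 6.78). Lower were 50 genes in WT and 12 in A159V, of which Il12b, Ifit3, Pfdn2, Psmb2 and Ube2m were shared (10% and 41.7%).

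T cells carry receptors for several of these ligands, and their summed levels in cells with at least 2 CD3 UMIs are given beside them. Icos was at 259, 581, 109 and 248 CPM, Cd28 at 191, 509, 97.9 and 144 CPM and Cxcr6 at 99.6, 333, 49.4 and 85.3 CPM. All 3 were highest in WT anti-PD1 and lowest in A159V IgG. Cxcr3, the receptor of Cxcl9, was at 31.7, 45.3, 17.2 and 21.4 CPM. Each of the 21 genes summed in T cells, Cd4 and Cd8a included, had a lower level with IgG in A159V than in WT, so a low level there is not particular to these receptors. Ccr4, the receptor of Ccl22 and Ccl17, was at 4.23, 7.05, 3.57 and 5.07 CPM. Il12rb2, a subunit of the IL-12 receptor, was at 123, 121, 59.3 and 97.9 CPM.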

How the data were processed

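Whole tumors were profiled by 10x 3′ single-cell RNA sequencing, with 1 library per group. The deposited values are raw UMI counts per gene and cell, which the authors made with Cell Ranger against mm10 with introns included, before their own removal of ambient RNA and doublets; the file headers give version 7.2.0 and the submitters' processing notes list 5.0.1. The files list 32285 genes.

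Barcodes above 500 detected genes counted as cells. Counts were summed over the mature Ccr7 cells of a library and divided by their total, giving CPM. Log2 ratios used a pseudocount of 10 CPM over genes of at least 100 CPM in 1 of both libraries. Shares carry exact Clopper-Pearson intervals, ratios of shares Katz intervals and summed counts exact Poisson intervals, all at 95% and for counting error only. Type 1 cells needed at least 1 UMI of Xcr1 and Clec9a together, Cd209a cells 1 of Cd209a without these, and macrophages 2 of C1qa and C1qb, all with the MHC class II minimum and no Ccr7. Doublets were predicted from simulated cell pairs and left in, except in an alternative. The scripts were tested on simulated data.

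Members and gene lists were chosen with earlier results of these data known. Named genes were the rule's genes, list members that lead in level or are past 2-fold, the 5 highest and 5 lowest ratios per comparison, and the 15 highest and 10 lowest against both dendritic classes. After the values were seen, genes with a UMI in at least 10 cells and past 2-fold with and without mixed cells were added to these. Alternatives changed the rule, the level minimum, the pseudocount, the depth, the weighting of cells, and left out doublets, mixed cells or single cells. Analyses used Python 3.11.15, numpy 2.4.6, scipy 1.17.1, pandas 2.3.3, scikit-learn 1.9.0 and matplotlib 3.10.9.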

Additional observations from a re-analysis of the deposited data

Results flagged for a closer look

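The sign of 2 genes differed between the genotypes under anti-PD1, with and without mixed cells, and the difference between genotypes was not tested. Prkg1, a cGMP-dependent protein kinase of smooth muscle and other cells, had a log2 ratio of 4.28 in WT and −3.28 in A159V. Its level was 0, 185, 172 and 8.77 CPM over all mature Ccr7 cells, and the unmixed cells with a UMI of it were 0, 4, 4 and 0. Fos, an immediate early gene, had a log2 ratio of −2.14 in WT and 1.58 in A159V, with 584, 124, 128 and 404 CPM.

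Among barcodes with at most 500 genes, which no comparison used, 4 of 590 in WT anti-PD1 met the rest of the rule (0.678%, Clopper-Pearson interval 0.185 to 1.73), above the 0.508% that a count of 0 allows. The counts elsewhere were 2 of 510 (WT IgG), 2 of 553 (A159V IgG) and 0 of 432 (A159V anti-PD1).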

How the results depend on the processing

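No paired analysis was possible because each group is 1 library, and with 1 library no replicate could be left out. Of 173 values under alternatives for the 22 main results, 125 stayed within counting error or within 1.5 times the count and 48 moved. Ratios of shares stayed within the interval of the main value, but some intervals left out 1. Among all cells, A159V IgG over WT IgG was 0.642 (0.465 to 0.886) without exclusion genes and 1.24 (0.747 to 2.06) when thinned, and WT anti-PD1 over WT IgG was 1.71 (1.07 to 2.72) over cells with Ptprc. Among dendritic cells the WT anti-PD1 ratio was 0.565 when thinned and 0.578 without exclusion genes, and the A159V one 0.739 without them. Shares moved to 0.455% in WT IgG and 0.503% in WT anti-PD1 when cells were thinned to 2000 UMIs. Requiring Ccl22 gave 0.411% in WT IgG and 0.406% and 0.383% in the A159V libraries with IgG and anti-PD1, and dropping the exclusion genes gave 1.21%, 0.775% and 0.811% in the same libraries.

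Counts of genes past 2-fold depended on the settings. In A159V IgG over WT IgG, the 130 higher became 202 with at least 2 Ccr7 UMIs, 245 with Ccl22 required, 52 without exclusion genes, 49 with a pseudocount of 50 CPM, 56 with cells weighted equally, 280 and 40 with level minimums of 50 and 200 CPM and 79 without mixed cells. The 111 lower became 64 with the larger pseudocount and 229 and 44 with both minimums. In WT anti-PD1, the 301 higher became 597 without exclusion genes, 176 with the larger pseudocount, 489 and 172 with both minimums and 185 without mixed cells. The 260 lower became 118 with Ccl22 required, 169 with the larger pseudocount, 157 with equal weights, 574 and 113 with both minimums and 134 without mixed cells. In A159V anti-PD1, the 199 higher became 117 without doublets, 5 without exclusion genes, 108 with the larger pseudocount, 94 with equal weights, 312 and 106 with both minimums and 87 without mixed cells. The 333 lower became 154, 19, 190, 57, 575, 129 and 75 in the same order. The share of A159V IgG became 0.878% of its remaining cells without mixed cells, and counts against the classes became 230 lower than type 1 cells, 277 higher than Cd209a cells and 348 higher than macrophages.

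Named genes lost their call more often than they changed sign. With the cell of most UMIs of a gene left out in each library, 9 of 23 did in A159V IgG over WT IgG. In WT anti-PD1 9 of 37 did, and in A159V anti-PD1 13 of 30 did and 2 reversed. Without exclusion genes 14 of 23, 5 of 37 and 20 of 30 lost their call, and 14 of 39 list medians changed sign. The log2 ratios that reversed are listed here. They include Ly6c2, which was past 2-fold lower in the unmixed cells of WT anti-PD1. Cxcl1 was 1.71 in A159V IgG with Ccl22 required. Without exclusion genes Ereg was 0.46, Klrk1 0.081 and Ly6c2 0.088 in WT anti-PD1, and Col1a1 was −1.43, Col1a2 −1.11, Prl2c3 0.055, Rarres2 −0.15 and Spp1 0.26 in A159V anti-PD1. There Col1a1 was −0.16 without doublets, and Col1a2 was −1.33 with Ccl22 required, −1.04 without the deepest cell, −0.84 without mixed cells and −0.60 without its top cell. Gzmb was 0.92 without its top cell. The causes were not tested beyond these constructions.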
